A study of Caenorhabditis elegans with 80 samples.

Results

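The transcriptome of wild-type Caenorhabditis elegans at day 11 was compared with that at day 8, over 6 libraries of day 11 worms and 6 libraries of day 8 worms. These 12 libraries are those that the labels give to strain N2 at these ages, out of 80 in the series, and 16710 of the 46904 genes in the deposited table passed the filter on low counts and were tested. The study sequenced messenger RNA of whole worms along adult ageing, with N2 libraries at days 6, 8, 11, 14 and 18 (6 libraries an age) and, in separate sets, daf-16(mu86) mutants (strain CF1038) and further N2 worms. The day 11 and the day 8 worms were N2 hermaphrodites, carried no mutation or transgene by the labels, and were kept at 20 °C on OP50-1 bacteria with 200 µg/mL streptomycin. FUDR, which blocks DNA synthesis and so keeps eggs from developing, was given to all groups, day 8 included, and no group shows ageing without it. Reads were paired, of 150 nt, from a HiSeq4000, and every library has the same batch value in the labels. The labels do not say whether the 6 libraries of an age came from separate cultures, so p-values measure the spread between these libraries.

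Ageing worms pass from a reproductive phase, in which the intestine makes yolk and the germline makes oocytes, into a post-reproductive phase with thinning intestine, loss of muscle order and bacterial colonisation. Insulin-like peptides act through the receptor DAF-2 and the kinases AKT-1 and AKT-2 to keep the FOXO transcription factor DAF-16 out of the nucleus. Genes that DAF-16 activity turns up are known as class I targets (stress proteins, metallothionein, lysozyme), and genes that go down with DAF-16 activity as class II targets. Whole-worm RNA mixes all tissues, so fewer cells of a type and less RNA per cell cannot be told apart in any value below.

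Depth was even between the ages: 35900694 to 40961247 counts a library at day 11 and 34496494 to 38948373 at day 8. A count above 0 was found for 19338 to 19774 genes at day 11 and for 18651 to 19156 genes at day 8. Pearson's r over genes was 0.979 to 0.992 among day 11 libraries, 0.984 to 0.991 among day 8 libraries and 0.964 to 0.979 between the ages. Day 11 libraries 1 and 2 stood apart on the second principal component of the 30 N2 time-course libraries (45.3 and 53.3, against 17.5 to 21.7 in the other 4 day 11 libraries and -8.94 to 5.82 at day 8). Counts for gene lists that moved by more than 1.5 times without these libraries are given without them as well, a choice made after seeing the data. On the same component libraries 1 to 3 lay above libraries 4 to 6 at day 14 (49.9 to 74.57 against -6.85 to 13.92). At day 18 they did so too (-18.06 to -3.98 against -57.38 to -35.56). The libraries of days 14 and 18 are part of the fit used below. Levels are CPM (counts per 1e+06 counts of a library), scaled by the trimmed mean of M values, and are not corrected for gene length, so they compare ages and not genes.

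From day 8 to day 11 the worms changed the level of 4951 of 16710 genes (29.6% at an adjusted p under 0.05, edgeR's quasi-likelihood test with Benjamini-Hochberg adjustment). Higher at day 11 were 3004 genes (18%), and lower were 1947 (11.7%). A change of at least 2-fold was called for 1142 genes higher at day 11 (6.83%) and for 313 genes lower (1.87%). The median log2 difference over all tested genes was 0.055. Without day 11 libraries 1 and 2 the counts were 3341 in all, 2081 higher and 1260 lower, and libraries 4 to 6 of each age alone gave 2336, 1257 and 1079. A fit to the 12 libraries alone, in place of all 30 of the time course, gave 3043 lower and 727 at least 2-fold higher.

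The directions fell at different levels of expression. Genes were classed by their mean at the higher of the 2 ages. Among 3759 tested genes under 1 CPM, 778 were higher at day 11 and 86 lower, and 640 of the higher ones were at least 2-fold up. The filter ran over all 30 N2 time-course libraries, so genes low at days 8 and 11 could pass through days 14 and 18. With the 12 libraries alone 727 genes in place of 1142 were at least 2-fold higher at any level. Among 2378 genes of 100 CPM or more the balance was the opposite, with 220 higher and 451 lower, and 34 genes in each direction passed 2-fold. The X chromosome had 61 genes at least 2-fold higher and 61 at least 2-fold lower of 2306 tested. These counts were 207 and 17 of 2650 on chromosome I, 218 and 48 of 2991 on II and 120 and 22 of 2492 on III. On IV they were 282 and 65 of 2833, and on V 249 and 100 of 3398. Of 7721 tested genes with no standard name, 749 were at least 2-fold higher and 161 at least 2-fold lower. Of 8989 with a standard name the counts were 393 and 152, so the 2 classes differed mainly in the upward direction. Of 51 tested lincRNAs, long RNAs between genes, 11 (21.6%) were higher and 0 lower, beside 18% and 11.7% over all tested genes.

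**Figure D1:**
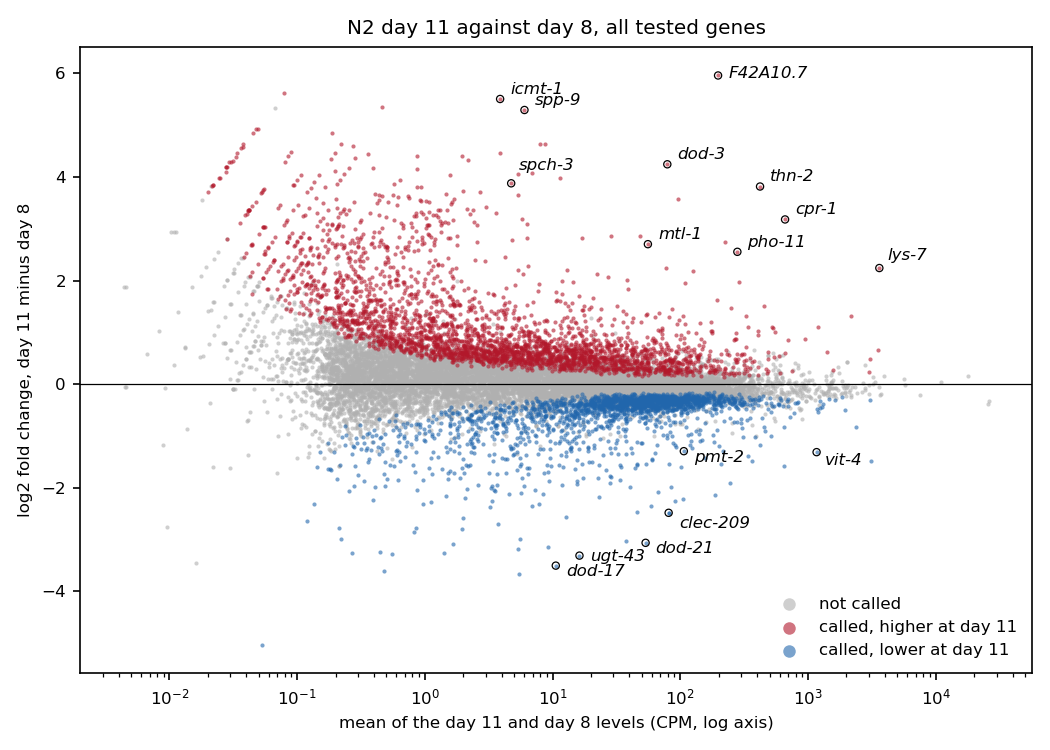
Each point is 1 of the 16710 tested genes: the x axis (log scale) is its mean level over the 12 libraries in CPM and the y axis its log2 difference, day 11 minus day 8, with called genes coloured by direction and named genes labelled. Genes higher at day 11 spread upward at low levels. By the mean of the higher age, 640 genes under 1 CPM were at least 2-fold higher, while at 100 CPM or more 34 genes passed 2-fold in each direction.

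Thaumatin-family, acid phosphatase-family, protease and saposin-like genes were among the strongest increases at day 11. The thaumatin-family gene thn-2 (WBGene00009215, chromosome IV, 12383170 to 12383974 on WBcel235), related to antimicrobial proteins of plants, had 699, 784 and 897 CPM in the lowest, median and highest day 11 library, against 35.05, 60.3 and 77.6 CPM at day 8. That is 14.1-fold (log2 3.82, SE 0.26, adjusted p = 5.3e-11), and no day 8 library came near the day 11 range. Its neighbour thn-1 (WBGene00009213, chromosome IV, 12380084 to 12380900) had 131, 153 and 252 CPM at day 11 and 12.7, 13.8 and 20.4 CPM at day 8 (log2 3.57, SE 0.29, adjusted p = 1.01e-09), again with no overlap. The smallest adjusted p of all tested genes in the upward direction belonged to pho-11 (WBGene00007331, chromosome II, 9931849 to 9934431), a member of the acid phosphatase family. It had 413, 484 and 534 CPM at day 11 and 67.9, 82.5 and 90.1 CPM at day 8 (log2 2.56, SE 0.13, adjusted p = 7.17e-15), with tight, separate groups.

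The cathepsin B-like protease gene cpr-1 had 857, 1241 and 1417 CPM at day 11 and 87.2, 127 and 188 CPM at day 8 (log2 3.18, SE 0.41, adjusted p = 1.8e-06). All 6 day 11 libraries lay above every day 8 library. The saposin-like gene spp-9 had 6.88, 11.6 and 16.08 CPM at day 11, against 0.0553, 0.326 and 0.599 CPM at day 8 (log2 5.29, SE 0.68, adjusted p = 1.89e-06). A second saposin-like gene, spp-12, had a log2 difference of 4.07 (SE 0.64, adjusted p = 2.57e-05). Others in the same range of size were lact-6, with a beta-lactamase-like domain (log2 4.63, adjusted p = 7.55e-09), dhs-26, a short-chain dehydrogenase (log2 4.63, adjusted p = 1.01e-09), asm-3, an acid sphingomyelinase (log2 3.99, adjusted p = 1.22e-06), and the ion channel subunit gene acd-1 (log2 3.19, adjusted p = 4.96e-08). The methyltransferase gene icmt-1 (log2 5.51, adjusted p = 2.33e-10) lies beside the acetylcholine receptor gene unc-38, and reads of such neighbours may be shared.

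A gene with no standard name had the largest log2 difference of all tested genes with a mean of at least 10 CPM at either age. F42A10.7 (WBGene00018343, chromosome III, 6177916 to 6178686), picked after its values were seen, had 280.2, 405 and 491 CPM at day 11 and 1.55, 3.998 and 19.03 CPM at day 8. That is 62.3-fold (log2 5.96, SE 0.47, adjusted p = 8.51e-10), and the highest day 8 library was far below the lowest day 11 library. Its mean was 3.10 CPM at day 6, 406 CPM at day 14 and 109.6 CPM at day 18. A second such gene, T26H5.9, also picked after its values were seen, had 311, 470.0 and 535 CPM at day 11 and 92.0, 113.3 and 152 CPM at day 8 (log2 1.98, SE 0.27, adjusted p = 3.89e-06).

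The genes that fell most included enzymes of lipid and small-molecule metabolism. The phosphoethanolamine methyltransferase gene pmt-2 (WBGene00018811, chromosome V, 4628580 to 4635263), of phosphatidylcholine synthesis, had 57.3, 60.4 and 67.4 CPM at day 11 and 136, 149.9 and 172 CPM at day 8 (log2 -1.29, SE 0.10, adjusted p = 7.86e-11), the smallest adjusted p of the downward calls. The UDP-glucuronosyltransferase gene ugt-43 had 2.48, 3.05 and 3.34 CPM at day 11 and 23.6, 26.7 and 45.9 CPM at day 8 (log2 -3.31, SE 0.37, adjusted p = 1.45e-07), and its neighbour ugt-44 had 24.9, 31.98 and 53.9 CPM at day 11 and 134, 163 and 229 CPM at day 8 (log2 -2.21). Neither of these genes overlapped between the ages. The gut acid phosphatase gene pho-1 fell by 2.31 on the log2 scale (adjusted p = 1.79e-06), the scavenger receptor gene scav-5 by 2.99 (adjusted p = 1.01e-09), the fatty acid binding protein gene lbp-7 by 2.12 (adjusted p = 1.61e-08) and the acyltransferase-like gene oac-6 by 2.56 (adjusted p = 2.31e-08). The saposin-like gene spp-17, with 12.04, 13.1 and 19.1 CPM at day 11 and 53.7, 75.9 and 107 CPM at day 8, moved opposite to spp-9 and spp-12 (log2 -2.46, SE 0.44, adjusted p = 0.000118). A C-type lectin, clec-209, had 20.8, 23.5 and 28.6 CPM at day 11 and 85.5, 133 and 210.5 CPM at day 8 (log2 -2.48), but the table holds a second gene ID with identical counts, so its level is uncertain. The aspartyl protease gene asp-14 had 18.8, 23.4 and 38.2 CPM at day 11 and 74.4, 109.8 and 138 CPM at day 8 (log2 -2.08, SE 0.22, adjusted p = 8.51e-08), and dct-17 had 26.2, 31.7 and 36.02 CPM at day 11 and 114, 139 and 200.2 CPM at day 8 (log2 -2.25, SE 0.30, adjusted p = 2.74e-06).

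**Figure D2:**
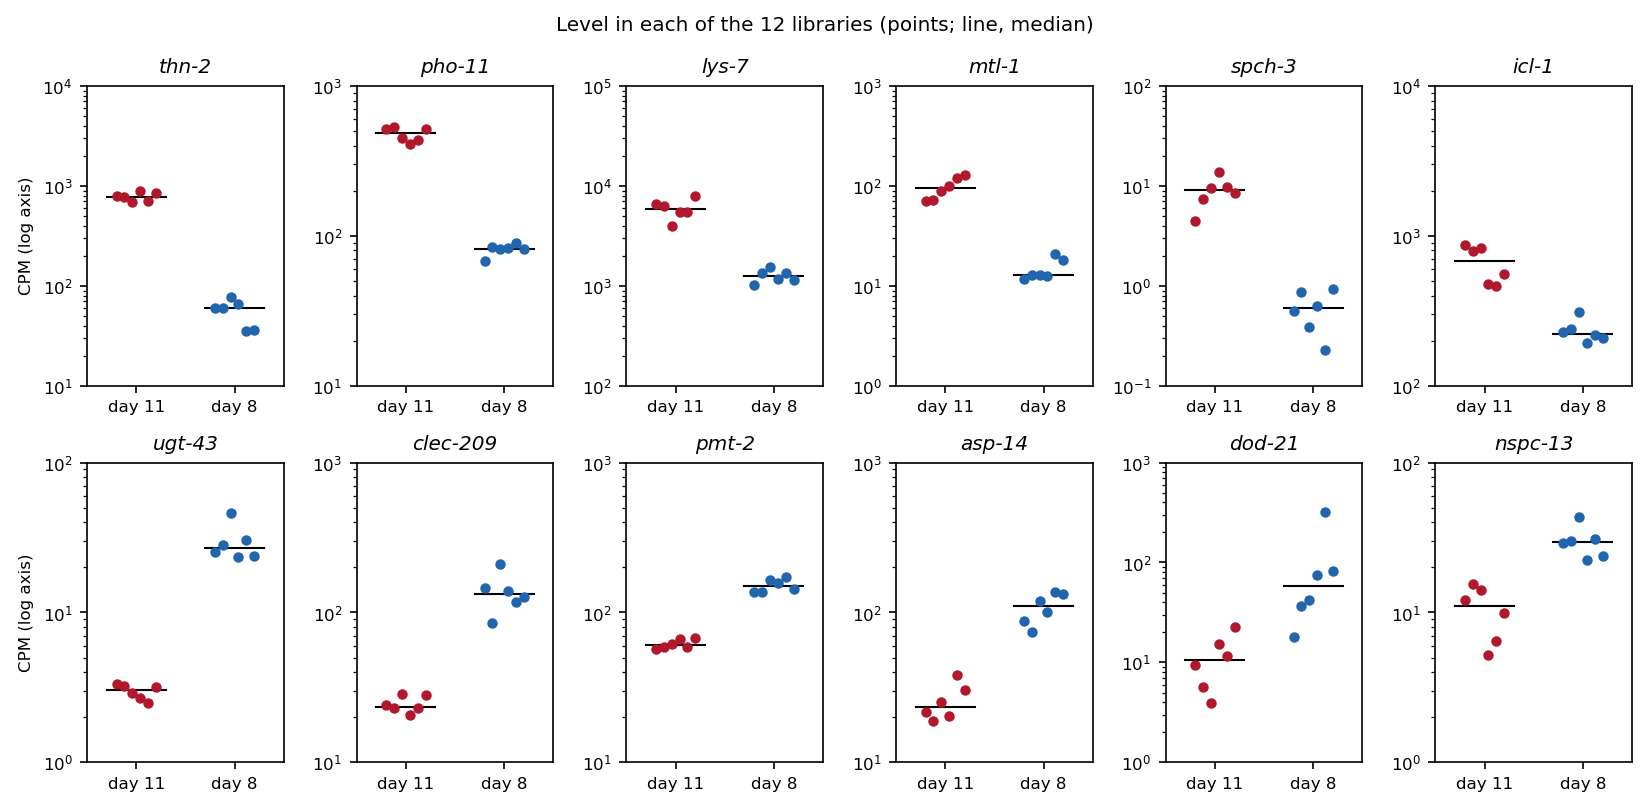
Each point is 1 library's level in CPM (log axis) for 12 named genes, with day 11 left of day 8 and a line at the median. For thn-2 the day 11 libraries sit at 699 CPM or more and the day 8 libraries at 77.6 CPM or less, while for dod-21 1 day 8 library at 320 CPM lies far above the others.

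DAF-16 class I genes were higher at day 11 almost as a group. Of 23 class I genes 21 passed the filter on low counts, of which 18 rose, 1 fell and 2 did not pass the test (over all tested genes 18% rose and 11.7% fell), with a median log2 difference of 0.98 beside 0.055 over all tested genes. Their summed level was 8853 ± 1432 CPM at day 11 and 2719 ± 239 CPM at day 8 (SD, n = 6 each), ranging from 6876 to 10880 CPM at day 11 and from 2418 to 3095 CPM at day 8. Most of that sum at day 11, which is not corrected for length, is the lysozyme gene lys-7. Its level was 3950.2, 5916 and 8008 CPM at day 11 and 1016, 1255 and 1539 CPM at day 8, a 4.73-fold difference without overlap (log2 2.24, SE 0.26, adjusted p = 2.68e-07). The list was assembled from published DAF-16 work with earlier results of these data known, so its direction is not independent evidence. Without day 11 libraries 1 and 2, 13 class I genes were higher and 1 lower, and libraries 4 to 6 alone gave 12 and 0.

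The steepest class I gene was dod-3 (WBGene00016052, chromosome V, 2730622 to 2731098), with 102, 152 and 201 CPM at day 11 and 5.36, 6.92 and 14.1 CPM at day 8, 18.96-fold higher (log2 4.25, SE 0.32, adjusted p = 4.03e-10). Metal-binding proteins followed: the metallothionein gene mtl-1 had 70.1, 94.8 and 128 CPM at day 11 and 11.8, 12.9 and 20.9 CPM at day 8 (log2 2.703, SE 0.35, adjusted p = 1.62e-06). The ferritin gene ftn-1 had 21.4, 40.4 and 46.8 CPM at day 11 and 6.59, 7.97 and 10.97 CPM at day 8 (log2 2.13, SE 0.27, adjusted p = 1.1e-06). For all 3 genes every day 11 library exceeded every day 8 library. The glyoxylate-cycle enzyme gene icl-1 had 465, 676 and 867 CPM at day 11 and 192, 222 and 312 CPM at day 8 (log2 1.52, SE 0.25, adjusted p = 3.86e-05), with no overlap. The mitochondrial superoxide dismutase gene sod-3, a standard read-out of DAF-16 activity, was low at both ages, with 3.42, 5.13 and 7.53 CPM at day 11 and 2.38, 2.58 and 3.08 CPM at day 8 (log2 0.98, SE 0.17, adjusted p = 7.11e-05).

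Smaller class I increases were found for nnt-1, a transhydrogenase (log2 1.23, adjusted p = 0.000209), the small heat shock gene hsp-12.6 (log2 1.21, adjusted p = 0.0337), the desiccation protein gene lea-1 (log2 1.01, adjusted p = 1.09e-06) and tps-1, of trehalose synthesis (log2 0.51, adjusted p = 0.00323). The catalase genes ctl-1 (log2 0.75, adjusted p = 0.00653) and ctl-2 (log2 0.62, adjusted p = 0.0146) are near-identical neighbours, so the split of reads between them is uncertain. The members that did not pass were asm-2 (log2 0.49, adjusted p = 0.298) and fat-5 (log2 0.44, adjusted p = 0.194), and dao-3 was the member that fell (log2 -0.42, adjusted p = 0.024).

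Class II genes showed the opposite tendency with fewer calls. Of 21 class II genes 20 were tested, of which 7 fell and 1 rose (6 and 2 without day 11 libraries 1 and 2, 6 and 3 in libraries 4 to 6 alone, 10 and 3 in the fit to the 12 libraries alone), with a median log2 difference of -0.39. Those that fell by the most were dod-17, with 1.14, 1.57 and 2.51 CPM at day 11 and 12.4, 17.7 and 31.5 CPM at day 8 and no overlap (log2 -3.50, SE 0.43, adjusted p = 7.5e-07), and dod-21 and cld-1, whose ages overlapped. In dod-21 the libraries had 3.95, 10.6 and 22.6 CPM at day 11 and 18.1, 58.8 and 319.9 CPM at day 8 (log2 -3.06, SE 0.62, adjusted p = 0.000527). The member that rose was ins-7, an insulin-like peptide known as an activator of DAF-2, with 16.18, 25.3 and 32.1 CPM at day 11 and 6.04, 7.88 and 8.52 CPM at day 8 (log2 1.71, SE 0.29, adjusted p = 6.82e-05).

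The genes of the pathway itself moved little. Transcript of daf-16 was at 187, 204 and 210.3 CPM at day 11 and 149.7, 171 and 182 CPM at day 8, a small difference without overlap (log2 0.28, SE 0.08, adjusted p = 0.00643), which did not pass in libraries 4 to 6 alone (adjusted p = 0.155 there). Of 22 tested insulin signalling genes 6 rose and 0 fell, among them akt-2 (log2 0.65, adjusted p = 7.09e-06), the insulin receptor substrate gene ist-1 (log2 0.54, adjusted p = 0.00512) and pptr-1, a phosphatase subunit acting on AKT-1 (log2 0.30, adjusted p = 0.000276). Libraries 4 to 6 alone gave 1 higher, and there ist-1 (adjusted p = 0.484) and pptr-1 (adjusted p = 0.053) did not pass. Of 30 tested insulin-like peptide genes 3 rose, ins-7 among them, and 1 fell, daf-28 (log2 -0.62, adjusted p = 0.0354). In this list 1 rose without day 11 libraries 1 and 2 or in libraries 4 to 6 alone. The daf-28 call was lost in 9 of the 12 fits that left out 1 library.

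**Figure D3:**
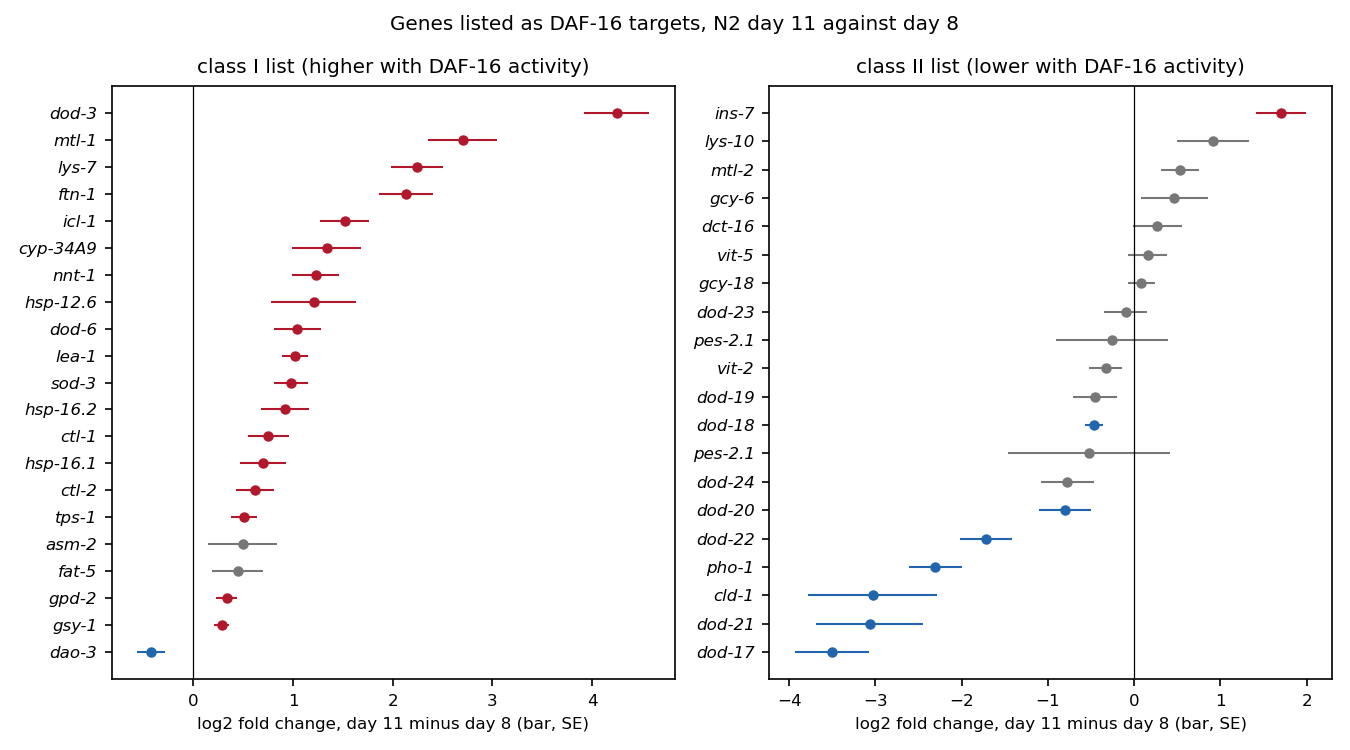
Points are the log2 differences, day 11 minus day 8, of tested class I and class II targets of DAF-16 with bars of 1 SE, coloured by whether the gene was called. Red marks genes called higher at day 11, blue genes called lower and grey the rest: of 21 class I genes 18 were called higher, dod-3 farthest at 4.25, and of 20 class II genes 7 were called lower and 1 higher.

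Libraries of daf-16(mu86) worms at day 6, with their own N2 set, share none of the 12 libraries and allowed both differences to be set side by side. In that comparison 20.7% of tested genes were lower and 18% higher in the mutant. Of 2581 genes higher at day 11 and tested in both comparisons, 941 (36.5%) were lower and 274 (10.6%) higher in the mutant. These 941 genes are 28.5% of the 3303 genes lower in the mutant. Of 1942 genes lower at day 11, 196 were lower and 837 (43.1%) higher in the mutant. The 196 are 5.93% of the genes lower in the mutant, and the 837 are 29.2% of the 2870 genes higher in the mutant. Among genes that changed at least 2-fold the pattern was not seen: of 725 such genes higher at day 11, 158 (21.8%) were lower and 177 (24.4%) higher in the mutant, and of 308 lower at day 11, 83 (26.9%) were lower and 61 (19.8%) higher. No test was made of these overlaps.

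Several of the strongest class I genes were lower in the mutant at day 6: dod-3 (log2 -3.04), lys-7 (-2.11), mtl-1 (-2.99), ftn-1 (-2.95) and sod-3 (-2.79). In all, 13 of the 21 class I genes were lower in the mutant and 0 higher, and of 20 class II genes 4 were lower and 4 higher. In contrast thn-2 had a log2 difference of -0.04 in the mutant (adjusted p = 0.895) and icl-1 one of -0.38 (adjusted p = 0.112). The gene with the largest decrease in the mutant among those named was col-183, a cuticle collagen (log2 -5.12), which had 284, 363.5 and 529 CPM at day 11 and 31.96, 54.5 and 85.2 CPM at day 8 in N2 (log2 2.75, SE 0.32, adjusted p = 3.02e-07).

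Innate immune genes rose in several families. Of 37 tested lysozyme and saposin-like genes 11 rose and 3 fell, and together they stood at 11780 ± 2304 CPM at day 11 and 6383 ± 931 CPM at day 8. Without lys-7 the sum was 5802 ± 957 CPM at day 11 and 5121 ± 749 CPM at day 8. The invertebrate lysozyme gene ilys-3, which is needed to digest bacteria in the gut, had 36.6, 44.1 and 48.6 CPM at day 11 and 7.08, 10.8 and 11.9 CPM at day 8 (log2 2.06, SE 0.28, adjusted p = 2.82e-06). Of 34 tested antimicrobial peptide genes 17 rose and 2 fell, with a median log2 difference of 0.61. They included the defensin-like gene abf-2 (log2 1.23, adjusted p = 4.23e-06) and the small secreted peptide genes fip-5 (log2 1.66, adjusted p = 6e-06) and fipr-26 (log2 1.65, adjusted p = 8.13e-05). In libraries 4 to 6 alone 7 antimicrobial peptide genes rose and 1 fell, and without day 11 libraries 1 and 2 12 rose and 0 fell.

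The genes that respond to intracellular pathogens formed a further group. Of 46 tested genes of the infection and intracellular response 20 rose and 1 fell, at a median of 0.38. Most were pals genes, a worm-expanded family regulated in that response: 16 of 33 tested pals genes rose and 0 fell. The examples with the smallest adjusted p were pals-26, with 5.08, 7.02 and 9.53 CPM at day 11 and 1.91, 3.08 and 3.53 CPM at day 8 (log2 1.28, SE 0.15, adjusted p = 3e-07), and pals-37 (log2 1.40, adjusted p = 1.95e-06). The member that fell was irg-8, which had 82.8, 103.9 and 121 CPM at day 11 and 287, 355 and 526 CPM at day 8 without overlap (log2 -1.90, SE 0.34, adjusted p = 0.000109). Libraries 4 to 6 alone gave 11 higher and 2 lower in this list, and the fit to the 12 libraries alone 20 and 4. The summed level of the list went the other way from the count, at 1518 ± 179.6 CPM at day 11 and 2077 ± 300 CPM at day 8. C-type lectins had calls in both directions, with 26 of 151 higher and 27 lower, 19 and 16 of them by at least 2-fold. Their summed level was 7077 ± 823.3 CPM at day 11 and 8686 ± 787.1 CPM at day 8. Among them clec-70 rose (log2 4.33, adjusted p = 5.13e-08) and clec-57 fell (log2 -2.69, adjusted p = 8.51e-10).

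In a stretch of chromosome IV, found after the values were seen, most of the tested genes fell. Between 12907469 and 12978343 (70.9 kb, from K08D8.4 to dod-17), 18 genes were tested, of which 11 were lower at day 11 and 0 higher, all 11 by at least 2-fold, with a median log2 difference of -1.63. They included C32H11.4 (log2 -3.67, SE 0.33, adjusted p = 2.46e-09), dod-17 and F55G11.2 (log2 -3.18, SE 0.30, adjusted p = 6.79e-09). The class II genes dod-21, cld-1 and dod-22 (log2 -1.72, adjusted p = 7.79e-05) lie in the same stretch. Their neighbour dod-24 did not pass the test (log2 -0.78, adjusted p = 0.0556). In dod-21 and cld-1 day 8 library 5 was far above the others, at 320 and 251 CPM.

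Genes of fatty acid breakdown had calls in both directions. Of 89 tested genes of fatty acid activation, oxidation and lipases 26 rose and 13 fell, with a median of 0.13. The lysosomal lipase genes lipl-3 (log2 2.79, SE 0.28, adjusted p = 2.31e-08) and, named after their values were seen, lipl-4 (log2 2.16, SE 0.29, adjusted p = 1.54e-06) and lipl-1 (log2 2.02, SE 0.43, adjusted p = 0.000889) rose, as did the acyl-CoA synthetase gene acs-10 (log2 2.74, adjusted p = 3.04e-07). The acid ceramidase gene asah-1, likewise chosen after its values were seen, had 93.8, 119.7 and 182.8 CPM at day 11 and 24.4, 26.4 and 30.5 CPM at day 8 (log2 2.24, SE 0.18, adjusted p = 7.43e-10). The transcription factor gene hlh-30, the worm TFEB that drives lysosome and autophagy genes, had 167, 174 and 207 CPM at day 11 and 105, 114 and 121 CPM at day 8 (log2 0.68, SE 0.12, adjusted p = 0.000132), and the 2 ages did not overlap. Of 31 tested autophagy genes 5 rose and 1 fell, with 3 and 2 in libraries 4 to 6 alone and 9 and 7 in the fit to the 12 libraries alone.

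Subunits of the proton pump that acidifies lysosomes were lower. Of 20 tested vha genes, which encode the vacuolar ATPase, 15 fell and 0 rose, and 11 were lower in libraries 4 to 6 alone. The sizes were small, with vha-8, named after its values were seen, at log2 -0.30, SE 0.06, adjusted p = 0.00046. Among all 45 tested gut and lysosomal protease and vacuolar ATPase genes, vha genes included, 17 fell and 6 rose. Without day 11 libraries 1 and 2 the counts were 17 and 3. The proteases did not share the direction of the vha genes: 3 of 12 tested asp genes rose and 2 fell, and 3 of 8 tested cpr genes rose and 0 fell. The strongest increase was cpr-1, and asp-14 and asp-8 (log2 -1.36, adjusted p = 0.000197) were large decreases. The summed level of the list was 19630 ± 3220 CPM at day 11 and 16770 ± 1410 CPM at day 8.

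In carbon metabolism, single steps of gluconeogenesis and fatty acid desaturation changed. The phosphoenolpyruvate carboxykinase genes pck-1 and pck-2, of the step that commits to glucose synthesis, both rose. The level of pck-2 was 756, 889.7 and 1023 CPM at day 11 and 455, 489.5 and 561 CPM at day 8 (log2 0.85, SE 0.12, adjusted p = 6.65e-06), and that of pck-1 was 92.5, 143 and 238 CPM at day 11 and 58.4, 66.8 and 81.1 CPM at day 8 (log2 1.16, SE 0.19, adjusted p = 3.91e-05). With icl-1 they belong to a list of 44 tested genes of glycolysis, gluconeogenesis and the citric acid cycle in which 11 rose and 7 fell, and the median was 0.01. Single libraries moved these counts: 7 rose without day 11 library 1, day 11 library 2 or day 8 library 5, and 3 fell without day 8 library 1. In all 6 rose and 5 fell without day 11 libraries 1 and 2, 5 and 1 in libraries 4 to 6 alone, and 9 and 12 in the fit to the 12 libraries alone.

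Among 21 tested desaturases and elongases 4 rose and 4 fell (2 and 2 in libraries 4 to 6 alone, 4 and 9 in the fit to the 12 libraries alone). The delta-6 desaturase gene fat-3, an entry step to polyunsaturated fatty acids, had 283, 374 and 419.7 CPM at day 11 and 117, 133 and 152 CPM at day 8 (log2 1.47, SE 0.15, adjusted p = 3.22e-08). The delta-9 desaturase gene fat-7, which makes oleic acid from stearic acid, had 7.17, 7.72 and 11.1 CPM at day 11 and 33.7, 34.6 and 49.1 CPM at day 8 (log2 -2.17, SE 0.49, adjusted p = 0.00161). Neither gene overlapped between the ages, and their directions were opposite.

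Sperm transcripts rose in most of their genes, from very low levels. Of 28 tested major sperm protein genes, which encode the cytoskeleton that moves nematode sperm, 26 rose and 0 fell, with a median log2 difference of 2.92. The same count of 26 was reached without day 11 libraries 1 and 2 and in libraries 1 to 3 and 4 to 6 of each age, and the fit to the 12 libraries alone gave 22. Their summed level was 43.4 CPM at day 11 and 6.76 CPM at day 8, after 18.1 CPM at day 6 and before 379.5 CPM at day 14 and 1266 CPM at day 18. These genes are near-identical copies, so single members such as msp-19 (log2 3.68, adjusted p = 5.76e-07), msp-113 (log2 3.52, adjusted p = 3.17e-07) and msp-50 (log2 3.65, adjusted p = 3.48e-07) are uncertain and the sum is the firmer value. The filter on low counts ran over all 30 N2 time-course libraries, so it could be passed through the high days 14 and 18, and 28 of 31 major sperm protein genes and 75 of 79 other sperm genes passed it.

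Most other genes of spermatogenesis rose too. Of 75 tested, 56 rose and 3 fell, with a median of 1.88. The fit to the 12 libraries alone gave 39 and 3. The summed level of this list did not rise with the count, at 734.7 ± 39.82 CPM at day 11 and 743.6 ± 63.67 CPM at day 8. The sperm chromatin gene spch-3 had 4.42, 9.02 and 13.7 CPM at day 11 and 0.230, 0.598 and 0.928 CPM at day 8 (log2 3.88, SE 0.36, adjusted p = 9.73e-09), and its mean reached 66.4 CPM at day 14 and 267 CPM at day 18. The sperm phosphatase gene gsp-3 (log2 4.16, adjusted p = 2.81e-08) and msd-4, a major sperm protein domain gene (log2 3.56, adjusted p = 5.65e-08), rose likewise. In 3 families of sperm genes, picked after values were seen, every tested member was called higher. These were 9 of 9 nspd genes, 12 of 12 ssp genes and 8 of 8 ttbk genes. Members could pass the filter through days 14 and 18. The mean of nspd-4 was 0.159 CPM at day 8, 1.40 CPM at day 11 and 33.4 CPM at day 18. The fit to the 12 libraries alone, with its own filter, gave 7, 6 and 6. Markers of males, which make only sperm, stood at a summed 9.66 ± 1.24 CPM at day 11 and 7.60 ± 0.971 CPM at day 8. Of 10 such markers 6 were tested and 0 passed edgeR's test (0 at an unadjusted p under 0.05, 0 with DESeq2 and 1 in a fit to the 12 libraries alone), and the part of males in the sperm values was not tested.

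Oocyte and embryo genes did not share this change. Of 39 tested oocyte and eggshell genes 6 fell and 0 rose, with cey-3 (log2 -0.42, adjusted p = 0.0037), puf-5 (log2 -0.47, adjusted p = 0.00612) and cpg-3 (log2 -0.37, adjusted p = 0.00351) among those that fell. Libraries 4 to 6 alone gave 12 lower, but without cey-3 (adjusted p = 0.178) and cpg-3 (adjusted p = 0.308). Lower were 4 without day 11 libraries 1 and 2 and 17 in the fit to the 12 libraries alone. Of 22 tested zygotic embryo genes 4 fell and 0 rose, and 2 fell without day 11 library 2 or day 8 library 5, without day 11 libraries 1 and 2 together or in libraries 4 to 6 alone. Of 18 tested nspc genes, a cluster of small peptides with near-identical copies, 15 fell and 0 rose, at a summed level of 151 CPM at day 11 and 379 CPM at day 8. Of 51 tested genes of DNA replication and the cell cycle 14 fell and 1 rose, with the GINS complex genes psf-2 (log2 -0.54, adjusted p = 0.0055) and psf-3 (log2 -0.45, adjusted p = 0.000408) among them, but 3 fell without day 11 libraries 1 and 2, psf-2 not among them (adjusted p = 0.055). In contrast 31 fell in the fit to the 12 libraries alone. Yolk genes were high at both ages, with a summed level of 65810 ± 8385 CPM at day 11 and 77860 ± 8184 CPM at day 8. Of 6 tested vitellogenin genes 1 fell, vit-4, with 475, 665 and 874 CPM at day 11 and 1458, 1624 and 2021 CPM at day 8 (log2 -1.31, SE 0.42, adjusted p = 0.0193). That call did not pass without day 11 libraries 1 and 2, nor in libraries 4 to 6 alone, and 4 vitellogenin genes were lower in the fit to the 12 libraries alone.

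Subunits of the proteasome and of the mitochondria were lower by small amounts in many genes. Of 31 tested proteasome genes 18 fell and 0 rose, at a median of -0.24, for example pas-3 (log2 -0.40, SE 0.08, adjusted p = 0.000584), pas-4 (log2 -0.34, adjusted p = 0.000392) and pbs-7 (log2 -0.38, adjusted p = 0.00206). Leaving out day 8 library 1 gave 10 lower, leaving out day 11 libraries 1 and 2 gave 9, and libraries 4 to 6 alone gave 2, where pas-3, pas-4 and pbs-7 did not pass (adjusted p = 0.211, 0.068 and 0.121). Of 47 tested nuclear genes of the respiratory chain 18 fell and 1 rose, at a median of -0.23, with nuo-4 (log2 -0.39, adjusted p = 0.00104) and lpd-5 (log2 -0.55, adjusted p = 9.66e-05) of complex I among those that fell. Libraries 4 to 6 alone gave 1 lower, and nuo-4 did not pass there (adjusted p = 0.104). The 1 gene that rose was cyc-2.2, a cytochrome c gene (log2 2.83, adjusted p = 6.65e-06). Of 12 tested genes of the mitochondrial genome 3 fell at a median of -0.28, 1 fell without any one of day 11 libraries 1 to 4 and day 8 libraries 2, 3, 5 and 6, and 0 were lower in libraries 4 to 6 alone or without day 11 libraries 1 and 2.

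The mitochondrial ribosome went the same way. Of 41 tested mrpl genes, for its large subunit, 27 fell and 0 rose, and of 25 tested mrps genes, for its small subunit, 19 fell and 0 rose. Among them, and named after their values were seen, were mrps-7 (log2 -0.80, SE 0.13, adjusted p = 2.61e-05) and mrpl-36 (log2 -0.65, SE 0.10, adjusted p = 1.75e-05). Without day 11 libraries 1 and 2 the counts were 23 and 15, and in libraries 4 to 6 alone 6 and 3. Cytosolic ribosomal proteins had fewer calls, with 6 of 83 lower and 1 higher, and 2 to 3 lower without any one of libraries 1, 2 and 3 of either age. There were 2 lower without day 11 libraries 1 and 2 together, 0 in libraries 4 to 6 alone and 20 in the fit to the 12 libraries alone.

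Stress and detoxification lists, which hold some class I genes such as hsp-12.6, had calls in both directions. Of 22 tested cytosolic heat shock genes 6 rose and 2 fell, and 3 rose without day 11 library 3 or without day 11 libraries 1 and 2, 1 in libraries 4 to 6 alone, and 5 rose and 6 fell in the fit to the 12 libraries alone. The heat-inducible gene hsp-70 had 5.88, 17.6 and 46.4 CPM at day 11 and 3.28, 4.26 and 7.01 CPM at day 8, with overlapping ages (log2 2.21, SE 0.37, adjusted p = 4.75e-05). Of 68 tested cytochromes P450 9 rose and 16 fell, with 4 and 11 without day 11 libraries 1 and 2 and 6 and 7 in libraries 4 to 6 alone. Of 63 UDP-glucuronosyltransferases 11 rose and 8 fell, with 4 and 8 without day 11 libraries 1 and 2, 6 and 9 in libraries 4 to 6 alone and 12 and 14 in the fit to the 12 libraries alone (7 rose without day 8 library 1 and 5 fell without day 8 library 3). Of 44 glutathione S-transferases 3 rose and 11 fell, with 1 and 6 in libraries 4 to 6 alone and 7 and 13 in the fit to the 12 libraries alone. The glutathione S-transferase gene gst-22, with 7.81, 11.3 and 11.9 CPM at day 11 and 20.9, 22.04 and 32.7 CPM at day 8, was among those that fell (log2 -1.12, SE 0.19, adjusted p = 6.96e-05). Of 153 cuticle collagens 17 were higher and 17 lower, but 9 were higher without day 11 library 2. There were 6 higher and 16 lower without day 11 libraries 1 and 2 together, 7 and 16 in libraries 4 to 6 alone and 26 and 21 in the fit to the 12 libraries alone. Against col-183, the collagen gene col-160 fell (log2 -1.39, adjusted p = 9.55e-05).

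**Figure D4:**
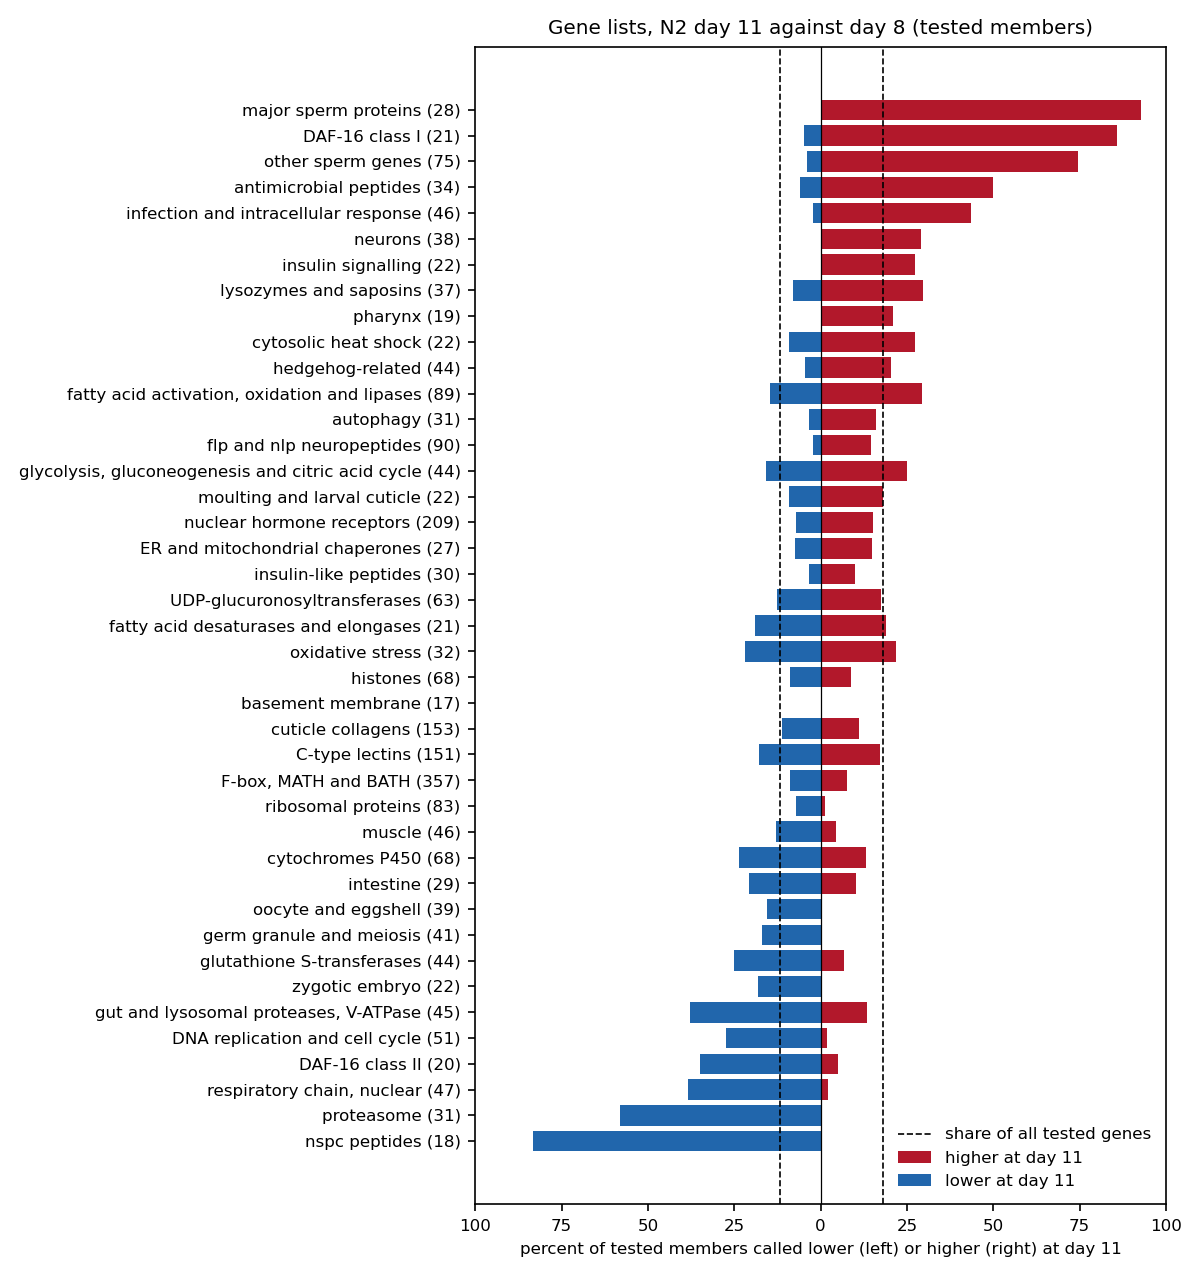
Bars give, for gene lists with at least 17 tested members, the percentage of members called higher (right) and lower (left) at day 11 against day 8, with dashed lines at the percentages over all tested genes, 18% higher and 11.7% lower. Major sperm proteins (26 of 28) and DAF-16 class I genes (18 of 21) stand farthest to the higher side and nspc peptides (15 of 18) and the proteasome (18 of 31) to the lower side.

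Markers of the tissues gave a measure of the mixture. Of 38 tested neuronal genes 11 rose and 0 fell, with a median of 0.39, including eat-4, of glutamate release (log2 0.96, adjusted p = 2.19e-05), the cilium gene osm-6 (log2 0.75, adjusted p = 0.000812) and unc-10, of synaptic vesicle docking (log2 0.59, adjusted p = 0.00148). This count rested on few libraries: it was 5, 4 and 6 without day 11 library 1, 2 or 3, 17 without day 11 library 6, and 6, 6, 7 and 5 without day 8 library 2, 3, 4 or 5. Without day 11 libraries 1 and 2 together 3 rose, libraries 1 to 3 alone gave 24 and libraries 4 to 6 alone gave 1, where osm-6 and unc-10 did not pass (adjusted p = 0.19 and 0.221). Of 90 tested neuropeptide genes of the flp and nlp families 13 were higher, a share under the 18% of all tested genes. Their count depended on the same libraries, with 3 without day 11 libraries 1 and 2 and 46 in libraries 1 to 3 alone. It was 4 to 8 without any one of day 11 libraries 1 to 3 and day 8 libraries 1 to 5. The widely used neuronal markers unc-119 (log2 -0.11, adjusted p = 0.457), rab-3 (log2 0.31, adjusted p = 0.141) and snb-1 (log2 0.05, adjusted p = 0.715) did not pass.

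Calls in body-wall muscle and gut went both ways, where over all tested genes 18% were higher and 11.7% lower. Of 46 tested muscle genes 6 fell and 2 rose, among them the troponin T gene tnt-2 (log2 -0.95, adjusted p = 0.00182) and the myosin light chain gene mlc-3 (log2 -0.73, adjusted p = 0.00356), both lower, and 11 fell and 1 rose without day 11 libraries 1 and 2 (10 and 4 in the fit to the 12 libraries alone). The myosin heavy chain genes unc-54 (log2 -0.48, adjusted p = 0.112) and myo-3 (log2 0.05, adjusted p = 0.833) did not pass. Of 29 tested intestinal genes 6 fell and 3 rose, and 3 fell without day 11 library 3 or without day 11 libraries 1 and 2, 4 fell and 1 rose in libraries 4 to 6 alone, and 10 fell and 7 rose in the fit to the 12 libraries alone. The microvillar actin gene act-5 had 228, 255 and 279 CPM at day 11 and 377, 406 and 449 CPM at day 8 (log2 -0.69, SE 0.24, adjusted p = 0.032), without overlap, while the gut esterase gene ges-1 (log2 0.30, adjusted p = 0.413) and the gut transcription factor gene elt-2 (log2 0.15, adjusted p = 0.63) did not pass. Of 19 tested pharynx genes 4 rose and 0 fell, and 2 rose in libraries 4 to 6 alone.

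Day 11 was then set against the midpoint of days 8 and 14, to find genes off a steady course. A high or low point at day 11 gives such a difference, and so does a rise or fall that slows after day 11. Off the midpoint were 675 genes (4.04%), 502 above (3%) and 173 below (1.04%). Of these, 391 were above both neighbouring ages in their means with the difference from day 8 called. A called difference between days 11 and 14 was not required. These counts depend on day 11 libraries: leaving out day 11 library 1, 2 or 3 gave 319, 345 and 348 genes off the midpoint, leaving out libraries 1 and 2 together gave 177, and leaving out library 5 lowered the count below the midpoint to 97.

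The high points at day 11, judged by the means, included genes already named. For thn-2 the means were 88.7 CPM at day 6, 55.9 at day 8, 787 at day 11, 556 at day 14 and 148 at day 18 (midpoint log2 2.16, SE 0.19, adjusted p = 4.45e-08). The course of dod-3 was 7.06, 7.93, 150.5, 94.3 and 27.8 CPM over the same ages (midpoint log2 2.46, adjusted p = 1.96e-07). Its fall from day 11 to day 14 was not called (log2 -0.67, adjusted p = 0.114 in the same fit). The low points included pmt-2 (midpoint log2 -0.70, adjusted p = 3.59e-06) and fat-7, which averaged 60.5, 37.5, 8.33, 15.98 and 9.28 CPM (midpoint log2 -1.56, adjusted p = 0.044). The lysozyme gene lys-7 had no such peak at day 11, at 556, 1264, 5979, 8767 and 3383 CPM. It was still above the midpoint (midpoint log2 0.85, adjusted p = 0.018).

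**Figure D5:**
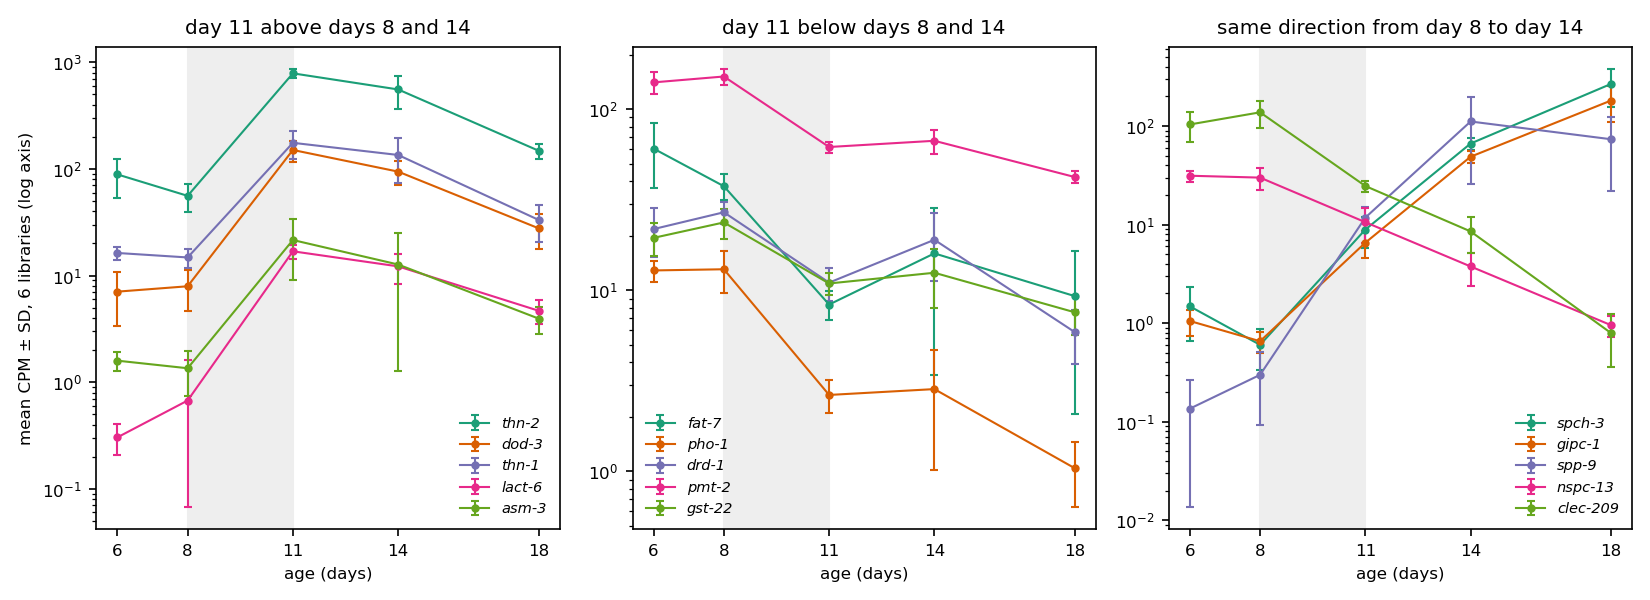
Lines give mean levels in CPM (log axis) over 6 libraries at days 6, 8, 11, 14 and 18, with bars of 1 SD (lower bars that would pass 0 are cut short) and a grey band over days 8 to 11. The left panel holds genes highest at day 11 against days 8 and 14 (thn-2 at 787 CPM on day 11), the middle panel genes lowest there (fat-7 at 8.33 CPM) and the right panel genes that moved one way from day 8 to day 14 (spch-3 at 0.602 CPM on day 8, 8.89 CPM on day 11 and 66.4 CPM on day 14).

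The change between days 8 and 11 was set against that between days 14 and 18, which involves other libraries and spans 4 days instead of 3. Between days 14 and 18, 51% of tested genes changed, 27.5% being higher and 23.5% lower at day 18. The 2 steps differed in 7342 genes (43.9% of those tested), with 4007 (24%) higher and 3335 (20%) lower in the step from day 8 to 11. Of the 3004 genes higher at day 11, 1106 (36.8%) were higher again at day 18 against day 14, which is 24.1% of the 4598 genes of that direction, and 771 (25.7%) were lower, 19.7% of the 3922. Of the 1947 genes lower at day 11, 400 (20.5%) fell again, 10.2% of the 3922, and 639 (32.8%) were higher, 13.9% of the 4598. A gene such as F42A10.7 turned back, while spch-3 went on in the same direction.

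Between days 6 and 14, again in libraries outside the comparison, 56.7% of tested genes changed, 29.8% being higher and 26.9% lower at day 14. Of the 3004 genes higher at day 11, 2409 (80.2%) were higher at day 14 against day 6 and 38 (1.26%) lower, the 2409 being 48.3% of the 4986 genes higher at day 14. Of the 1947 genes lower at day 11, 1582 (81.3%) were lower at day 14 and 14 (0.719%) higher, the 1582 being 35.2% of the 4491 genes lower at day 14.

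The spread between libraries was measured as the root mean square deviation of log2 CPM from the mean of its age, over all tested genes. This spread was 0.417 ± 0.0387 at day 11 (0.365 to 0.465) and 0.402 ± 0.0414 at day 8 (0.353 to 0.476, SD, n = 6 each). The difference of 0.0154 was well within the spread of the libraries (exact two-sided permutation test over 924 splits, p = 0.504, where the smallest possible p is 0.00216), and its sign turned to -0.00524 without day 8 library 2. Groups of all 6 libraries that did not overlap were found for 3285 of the 16710 tested genes (29.6% were called in all), for 1579 of the 3004 called higher and for 1304 of the 1947 called lower.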

How the data were processed

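Per the submitters' processing notes, FastQC, STAR 2.7.11b and RSEM 1.3.3 were used with the build WBcel235. The deposited values are expected counts per gene, estimated by the authors with RSEM and not normalised. The strandedness of the libraries is not stated in these sources, so reads of overlapping or antisense genes cannot be told apart, and near-identical copies share reads. Expected counts were rounded to whole numbers (2.73% of values were not whole). Of 46904 gene IDs, 46817 were found in the annotation used for names and positions.

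One model with a coefficient for each age was fitted to the 30 N2 libraries of days 6 to 18 (edgeR 4.0.16, filterByExpr, TMM scaling, robust quasi-likelihood F test, Benjamini-Hochberg adjustment over 16710 genes, threshold 0.05). Standard errors are the log2 difference divided by the root of F. The contrasts were day 11 minus day 8, day 11 minus the midpoint of days 8 and 14, and the step from day 8 to 11 minus that from day 14 to 18. The other 50 per-sample columns, 20 of CF1038 and 30 of a second N2 set, served only for the overlap with the daf-16 mutant. CPM values are TMM-scaled. The 45 gene lists and the genes named were chosen with earlier results of these data known. The nspd, ssp, ttbk, vha, mrpl and mrps families were picked by symbol prefix with their values seen. Named genes are the 10 largest changes and 5 smallest adjusted p values in each direction (at least 10 CPM at the higher age, and 11 of 12 libraries on their own side of the other age's median, for the first), up to 3 called members per list, 5 high and 5 low points at day 11, and daf-16. Genes outside this rule are marked where they are named as chosen after their values were seen, apart from list members given as the rest of a list.

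On simulated counts for 16527 genes, 100 were changed 2-fold and 100 changed 1.5-fold. The day 11 against day 8 test recovered 73% of the 2-fold and 39% of the 1.5-fold changes, with 9 false calls. Far fewer genes were changed there than the 29.6% called in the data, so these rates may not carry over. DESeq2 1.42.0, other scalings and filters, a replicate block, smaller sets of libraries and leaving out each library of days 8 and 11 were the alternatives. R 4.3.3, limma 3.58.1, the data.table package (version 1.17.8), Python 3.11.15, numpy 2.4.6 and matplotlib 3.10.9 were used. Libraries held 34496494 to 40961247 counts, and intervals were not computed per gene beyond the spread between libraries.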

Additional observations from a re-analysis of the deposited data

Results flagged for a closer look

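Within the 6 libraries of an age, 20 of 226 gene groups looked at (8.85%) had 1 library far from the others, where chance alone flags about 1 in 20 groups. Day 8 library 5 was the high one for 4 genes of the chromosome IV stretch, with 320 CPM for dod-21 against 18.1 to 81.5 CPM in the other 5, 251 CPM for cld-1 against 8.89 to 52.4 CPM, 211 CPM for dod-24 against 70.1 to 115 CPM and 8.95 CPM for dod-22 against 2.73 to 4.78 CPM. The same library was low for daf-28 (5.67 CPM), ilys-3 (7.08 CPM) and msd-4 (0.0576 CPM). Day 8 library 4 was high for F42A10.7 (19 CPM), thn-1 (20.4 CPM) and lact-6 (2.54 CPM), genes whose day 11 libraries were all higher still. Day 8 library 3 was high for ugt-43 (45.9 CPM), gst-22 (32.7 CPM) and asp-8 (6.99 CPM), and day 8 library 6 for T26H5.9 (152 CPM). At day 11, library 4 was high for acs-10 (2.43 CPM) and pas-4 (130 CPM), library 6 for spp-17 (19.1 CPM) and dod-24 (109 CPM), and library 3 was high for dod-22 (2.74 CPM) and low for gst-22 (7.81 CPM).

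Differences between steps were also marked for a closer look. The step from day 8 to 11 differed from that from day 14 to 18 in 7342 genes by the test of the difference itself. Day 11 was off the midpoint of days 8 and 14 in 675 genes, again by a test of that difference. This count moved when single day 11 libraries were left out, as given above, and day 14 libraries were not left out singly.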

How the results depend on the processing

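With RLE size factors 4954 genes were called (2881 higher, 2073 lower), with DESeq2 5302 (3097 and 2205) and with no filter on low counts 4582 (2750 and 1832), all within 1.5 times the reported counts, and the all-gene median was 0.039 with RLE or DESeq2 in place of 0.055. Fitting only the 12 libraries gave 3043 genes lower and 727 at least 2-fold higher. Libraries 1 to 3 of each age gave 3091 genes off the midpoint (1807 above, 1284 below). Libraries 4 to 6 of each age gave 2336 changed genes (1257 higher, 1079 lower), 164 off the midpoint (140 above, 24 below) and 2846 with different steps (1716 higher, 1130 lower). Leaving out day 11 libraries 1 and 2 together, chosen after seeing the data, gave 1260 genes lower and 177 off the midpoint (154 above, 23 below). Leaving out 1 library at a time gave 4049 to 4862 changed genes (2486 to 3024 higher, 1563 to 1876 lower), 1383 to 1520 changed at least 2-fold (1087 to 1187 higher, 279 to 333 lower), 319 to 854 off the midpoint (262 to 642 above, 57 to 212 below) and 6576 to 7429 with different steps (3613 to 4050 higher, 2963 to 3401 lower). The difference in spread ran from -0.00524 to 0.0373, and its sign turned to -0.00524 without day 8 library 2. Replicate numbers did not pair the libraries (same-number correlations of 0.02, 0.06, -0.01, 0, 0.11 and -0.01), and a fit with replicate block gave 5070 changed genes (3039 higher, 2031 lower), 1430 at least 2-fold (1118 higher, 312 lower), 735 off the midpoint (567 above, 168 below) and 7510 with different steps (4004 higher, 3506 lower). The causes of these shifts were not tested. Smaller sets of libraries also test with fewer residual degrees of freedom, and at low levels depth limits what could be called.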

Other observations

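Several gene families, picked by their symbol prefix after values were seen, had called members mostly in one direction. Of 22 tested acs genes, which activate fatty acids, 10 were higher at day 11 and 0 lower, and of 40 twk genes, for potassium channels, 14 were higher and 0 lower, beside 18% higher and 11.7% lower over all tested genes. Of 8 tested sulp genes, for anion transporters, 6 were higher and 0 lower, and of 24 ptr genes, related to the Hedgehog receptor patched, 10 were higher and 1 lower. The caenacin peptide genes (cnc) had 5 of 8 higher and 1 lower. The 8 tested exos genes, for the RNA exosome, had 4 lower and 0 higher.

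Other lists had fewer or mixed calls. Of the nuclear hormone receptor genes 32 were higher, 15 lower and 162 did not pass (8 to 9 lower without day 11 library 3, day 8 library 3 or day 8 library 5). Without day 11 libraries 1 and 2 together 16 were higher and 11 lower, and libraries 4 to 6 alone gave 10 and 6. Of 357 F-box, MATH and BATH genes 27 were higher and 32 lower, with 12 and 18 in libraries 4 to 6 alone. Of 68 histone genes 6 were higher and 6 lower (11 higher without day 8 library 6 and 3 lower without day 11 library 2, 6 and 2 without day 11 libraries 1 and 2 together, 4 and 8 in libraries 4 to 6 alone, 8 and 14 in the fit to the 12 libraries alone), among them hil-1, a linker histone, which rose (log2 0.93, adjusted p = 5.82e-05). Of 41 germ granule and meiosis genes 7 were lower and 0 higher, but 2 were lower without day 11 library 1 or 2, 3 without day 8 library 1 or 2 and 4 without day 8 library 4. Without day 11 libraries 1 and 2 together 1 was lower, as in libraries 4 to 6 alone, and 12 were lower in the fit to the 12 libraries alone. Of 6 metallothionein, ferritin and related genes 2 were higher, mtl-1 and ftn-1, and 2 lower, one of which was cdr-1, a cadmium-responsive gene (log2 -1.82, adjusted p = 2.68e-06).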
